A study of Mus musculus with 6 samples.

Results

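Transcripts of young postmitotic neurons were followed in the trunks of Arid3b-null and wild-type mouse embryos. The set holds 42 genes, taken as a list of named neuronal genes, of the 32530 gene names on the array. Of these names 20021 are gene symbols, and the rest are array names of probes without a symbol. The list was chosen with earlier results of these data known. All 42 had at least 1 probe, 57 probes in all, and they were grouped by known role into 14 neuronal transcription and RNA factors, 18 genes of the cytoskeleton and growth cone, 3 adhesion genes and 7 vesicle and secretory genes. Of these, 39 could be tested and 38 were well above background on all 6 arrays. Cntn2 was tested because it was well above background on the 3 wild-type arrays, against 1 of the 3 Arid3b-null arrays. Myt1, St18 and Syt4 were too dim to test.

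The mutant embryos were labelled Arid3b-null, without the allele or strain being named, and the others wild type, all at embryonic day 9.5. Arid3b is a DNA-binding protein of the AT-rich interaction domain family. The tissue was the trunk with forelimbs, cut at the otic vesicle in front and at somite 15 behind, so it holds neural tube, ganglia, somites, limb buds, vessels and skin together. Each group had 3 samples, each a pool of RNA from 4 embryos on a one-colour array, numbered 1 to 3 as replicates, and the spread between arrays is one between pools.

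A neuron that leaves the cell cycle switches on a shared set of genes whatever class it belongs to. RNA-binding proteins such as the Elav family and splicing factors such as Srrm4 change its messages, tubulin, tau, stathmins and neurofilaments build the axon, adhesion molecules guide it, and vesicle proteins prepare secretion. In the mouse trunk the first spinal motor neurons and sensory neurons arise around this stage, while most of the neural tube still consists of dividing progenitors.

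Values are log2 signals relative to the 75th percentile of each array, so that 0 is the level of that percentile, and a change is Arid3b-null minus wild type. That percentile lay between 611.2 and 844.4 units of signal. The Arid3b probe of highest signal read 0.54, 0.65 and 0.46 in Arid3b-null, against 2.18, 2.57 and 1.97 in wild type, a change of -1.69 ± 0.17 (SE, limma adjusted p = 0.00154), and its other 2 probes changed by -3.23 and -1.90. Which of these probes lie in the deleted stretch was not stated. The markers Meox1 and Tcf15 of somite and Tbx5 and Twist1 of forelimb, read only for their presence, were well above background on all arrays. The forebrain and midbrain gene Otx2 read -4.84, -5.43 and -6.74 in Arid3b-null and -5.83, -5.72 and -5.42 in wild type. Each of the 3 slides held the pair of arrays with the same replicate number, Arid3b-null in position 2 and wild type in position 1, so genotype and position on the slide cannot be told apart.

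Most of the neuronal genes were lower in the Arid3b-null trunks. Of the 39 tested, 29 fell, 3 rose and 7 did not pass (limma, Benjamini-Hochberg over all genes), where 12.9% of all 19795 genes tested fell and 13.6% rose. Their median change was -0.98, against -0.04 over all genes tested. Of 11 markers of neural tube progenitors 7 fell and 0 rose, while Sox1, Sox2, Pax6 and Msi1 did not pass. In 31 of the 39 all Arid3b-null arrays lay below all wild-type arrays, which held for 23.1% of all genes. The falls were 2-fold or more in 19 genes (2.85% of all genes fell that far), 4-fold or more in 11, and 8-fold or more in 2, Scrt1 and Stmn2. A lower signal in whole trunks can come from fewer neurons or from less RNA per neuron, and these cannot be told apart here. With background correction by normexp (a model that removes background without negative values) on each spot's own local background, 0 of the 39 passed by limma (23 lower and 1 higher at an unadjusted p under 0.05). After leaving out 30 spots whose local background exceeded 100 units, a step chosen after seeing the data, 27 fell and 2 rose.

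**Figure D1:**
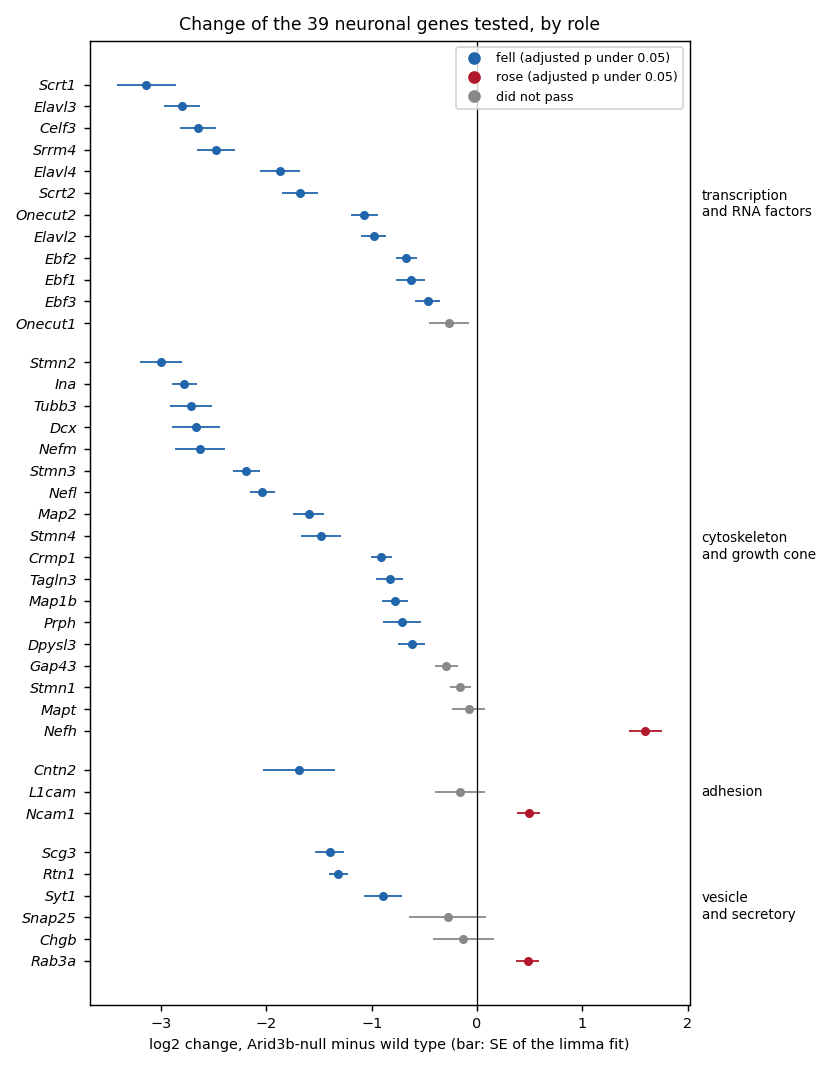
Log2 change (Arid3b-null minus wild type) of the 39 neuronal genes tested, with the SE of the limma fit as bars, grouped by role and ordered by size. Blue points fell, red points rose and grey points did not pass; 29 points are blue, and only Nefh, Ncam1 and Rab3a are red.

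Among the transcription and RNA factors 11 of 12 tested fell and 0 rose (limma; also 0 higher at an unadjusted p under 0.05), with a median change of -1.37. Elavl3, an RNA-binding protein of postmitotic neurons, read -1.54, -1.14 and -1.51 in Arid3b-null, against 1.60, 1.17 and 1.46 in wild type. It fell 6.97-fold (-2.80 ± 0.17, limma adjusted p = 0.000391), and the groups were far apart on every array. Its relatives Elavl4 and Elavl2 fell 3.65-fold (limma adjusted p = 0.00157) and 1.97-fold (0.0027). The second probes of Elavl4 and Elavl2 changed by -2.30 and -1.18, against -1.87 and -0.98 on the brightest.

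Celf3, another neuronal RNA-binding protein, read -3.44, -3.14 and -3.11 in Arid3b-null and -0.36, -0.86 and -0.50 in wild type, a 6.29-fold fall (-2.65 ± 0.17, limma adjusted p = 0.000407). Srrm4, the splicing activator of neuronal microexons, had values of -3.75, -3.30 and -3.27 in Arid3b-null, against -0.95, -1.16 and -0.77 in wild type, and fell 5.59-fold (-2.48 ± 0.18, limma adjusted p = 0.000558). In both genes no array of either group came near the other group. Scrt1, a Snail-related zinc finger repressor of newborn neurons, read -4.45, -3.42 and -4.35 in Arid3b-null and -0.74, -1.10 and -0.96 in wild type. Its fall of 8.80-fold (-3.14 ± 0.28, limma adjusted p = 0.00109) was the largest of the 39 in these values, but not under any normexp setting, and Arid3b-null pool 2 stood above the other 2 Arid3b-null arrays. The paralogue Scrt2 fell 3.20-fold (limma adjusted p = 0.00156). With normexp on each array's median background the falls were smaller, 4.14-fold for Scrt1, 3.76-fold for Celf3 and 3.41-fold for Srrm4. After normexp with quantile normalization they were 3.32-fold, 3.12-fold and 2.89-fold, and Elavl4 and Scrt2 fell 2.39-fold and 2.04-fold.

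The Ebf genes, helix-loop-helix factors of neuronal differentiation that mesenchyme also expresses, changed less. Ebf2 fell 1.59-fold (limma adjusted p = 0.0058), Ebf1 1.54-fold (0.0187) and Ebf3 1.38-fold (0.0275). Ebf1 was not called without wild-type pool 1 or 2 or Arid3b-null pool 1 or 3 (limma adjusted p = 0.0694, 0.0618, 0.056 and 0.0595). Ebf3 was not called without wild-type pool 1, 2 or 3 or Arid3b-null pool 1 or 3 (0.1, 0.0591, 0.0687, 0.0751 and 0.0788), with the slide as a block (0.0554) and with median scaling (0.0521). Without a filter on dim probes neither passed (0.0752 for Ebf1 and 0.106 for Ebf3).

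Of the Onecut homeobox factors, only Onecut2 passed. It read 0.47, 0.73 and 0.43 in Arid3b-null and 1.69, 1.48 and 1.67 in wild type, a 2.10-fold fall (limma adjusted p = 0.00262). Onecut1, a marker of early motor neurons and interneurons, read -4.90, -4.37 and -4.27 in Arid3b-null, against -4.40, -4.13 and -4.20 in wild type, and did not pass (-0.27 ± 0.19, limma adjusted p = 0.335). The arrays of the groups overlapped for Onecut1. Whether the changes of these genes differ was not tested.

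The zinc finger factors of the Myt family, Myt1 and St18, were not tested, 1 of them with signal only in wild type. Myt1 read -8.93, -9.10 and -8.11 in Arid3b-null and -8.61, -8.65 and -8.15 in wild type, not well above background on any array. St18 read -8.49, -8.48 and -7.70 in Arid3b-null, on no array well above background, against -5.0, -7.96 and -4.41 in wild type, where 2 of 3 arrays were. Without a filter on dim probes St18 did not pass (limma adjusted p = 0.199).

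Promoter sequences, 250 bases before to 50 after the start of the transcript, were taken from RefSeq on build GRCm38.p6, which had entries for 25 of the 42 genes. They are shown for 2 genes with low adjusted p in the large groups and for the members whose window matched an ARID3 or an EBF motif, a choice made after the matches were seen. Capitals mark the letters of a motif on either strand: CAGCTG and CAGATG, E-boxes of proneural factors, CAGGTG, the E-box of Snail and Scratch proteins, ATTAAA, a core of ARID3 sites, TCCC and GGGA 2 bases apart, the EBF palindrome, TATAAA, the TATA box, and GGACAG and GCC 1 base apart, the right arm of the REST site. The windows lie at chr9:22051974-22052273, minus strand (Elavl3), chr19:47014431-47014730, plus strand (Ina), chr4:110287478-110287777, minus strand (Elavl4, 1 of 4 entries) and chr9:75684007-75684306, minus strand (Scg3).
Elavl3: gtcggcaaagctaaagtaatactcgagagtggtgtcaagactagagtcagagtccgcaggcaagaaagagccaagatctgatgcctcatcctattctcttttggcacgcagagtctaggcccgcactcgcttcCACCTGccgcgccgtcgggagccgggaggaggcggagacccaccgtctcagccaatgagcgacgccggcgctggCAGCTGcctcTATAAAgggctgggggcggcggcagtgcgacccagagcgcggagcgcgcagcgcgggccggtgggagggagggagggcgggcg
Ina: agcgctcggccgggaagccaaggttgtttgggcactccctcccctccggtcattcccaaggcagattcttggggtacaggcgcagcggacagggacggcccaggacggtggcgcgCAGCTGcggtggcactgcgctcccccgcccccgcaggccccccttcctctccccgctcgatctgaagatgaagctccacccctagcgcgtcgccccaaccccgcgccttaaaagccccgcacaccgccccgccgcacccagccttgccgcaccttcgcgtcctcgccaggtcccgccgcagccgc
Elavl4: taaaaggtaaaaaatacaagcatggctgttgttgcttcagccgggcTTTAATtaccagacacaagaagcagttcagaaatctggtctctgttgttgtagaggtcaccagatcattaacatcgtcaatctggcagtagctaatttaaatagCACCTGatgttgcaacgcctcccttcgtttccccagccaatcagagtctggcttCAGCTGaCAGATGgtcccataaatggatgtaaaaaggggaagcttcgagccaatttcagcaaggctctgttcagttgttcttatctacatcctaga
Scg3: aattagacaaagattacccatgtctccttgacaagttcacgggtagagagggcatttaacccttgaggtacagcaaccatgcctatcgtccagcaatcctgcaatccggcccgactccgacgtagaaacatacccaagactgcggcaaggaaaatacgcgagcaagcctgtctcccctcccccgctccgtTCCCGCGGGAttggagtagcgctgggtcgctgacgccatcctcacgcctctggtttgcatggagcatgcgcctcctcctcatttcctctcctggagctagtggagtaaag
In the Elavl3 window CACCTG lies at -117, CAGCTG at -43 and TATAAA at -33 from the start. Ina has CAGCTG at -135. The Elavl4 window has TTTAAT at -204, CACCTG at -100, CAGCTG at -46 and CAGATG at -39, and Scg3 has TCCCGCGGGA at -60.

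By entry, CAGCTG was found in 13 of 49 promoter entries of the 25 genes, against 16.3% of all 32851 entries, and CAGATG in 12 of 49, against 17.2%. CAGGTG matched 9 of 49, against 20.2%, TATAAA 7 of 49, against 13.6%, ATTAAA 2 of 49, both of Elavl4, against 13.9%, and the EBF palindrome 1 of 49, against 0.904%. The right arm of the REST site was in 0 of 49, against 0.521%. Entries of 1 gene overlap in part, so they are not independent, and a match is a run of letters, not a measured site.

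In the cytoskeleton group 14 of 18 genes fell, 1 rose and 3 did not pass, with a median change of -1.20. Ina, the alpha-internexin filament of young axons, read -1.34, -1.29 and -1.58 in Arid3b-null and 1.47, 1.29 and 1.39 in wild type. Its fall of 6.87-fold (-2.78 ± 0.12) had the smallest adjusted p of the 39 genes (limma adjusted p = 0.000184), and the 3 arrays of each group lay close together. Tubb3, the neuronal beta-tubulin, read -2.14, -1.80 and -1.75 in Arid3b-null and 0.56, 0.70 and 1.19 in wild type, a 6.57-fold fall (-2.72 ± 0.20, limma adjusted p = 0.000591) that was 4.23-fold after normexp with quantile normalization. Dcx, doublecortin, which binds the microtubules of migrating neurons, read -4.28, -3.61 and -4.16 in Arid3b-null and -1.02, -1.60 and -1.40 in wild type, and fell 6.37-fold (limma adjusted p = 0.000913). Its second tested probe changed by -2.64, and an untested probe, dim on all Arid3b-null arrays, differed by -1.89. Under normexp on each array's median background Dcx fell 3.39-fold, and after normexp with quantile normalization Dcx fell 2.79-fold and Ina 4.56-fold.

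**Figure D2:**
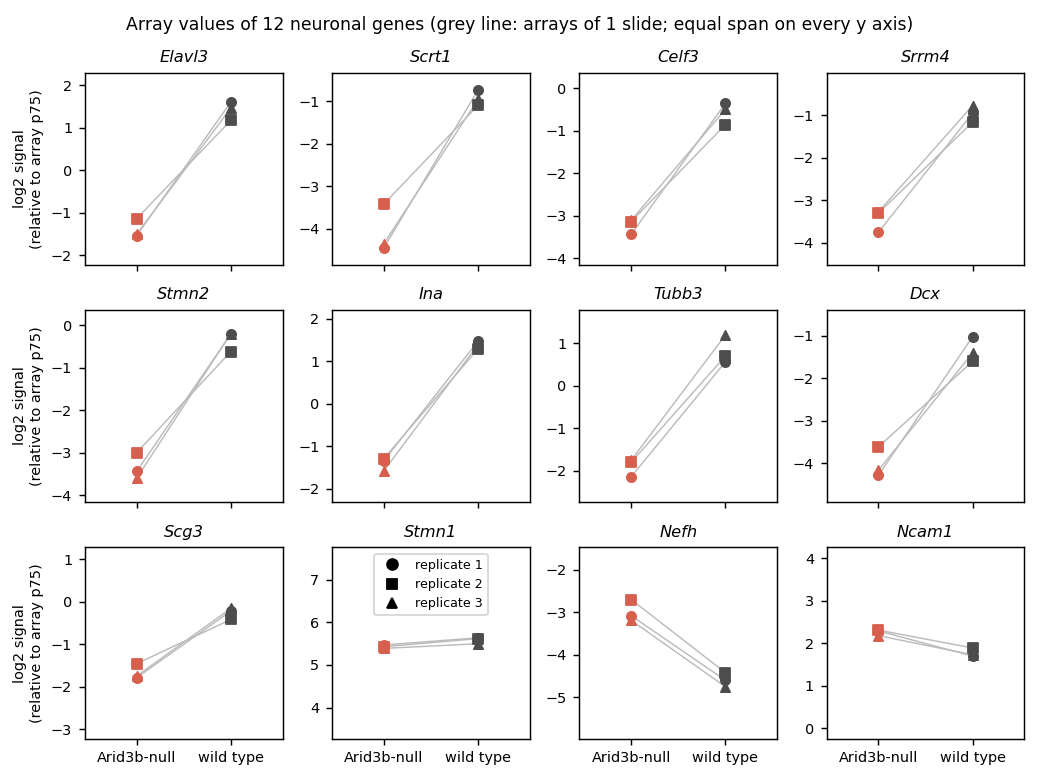
Log2 signal relative to each array's 75th percentile for 12 neuronal genes, Arid3b-null arrays left (red) and wild-type arrays right (grey), with symbols for the replicate number and grey lines joining arrays of 1 slide. Every y axis spans the same number of log2 units; 9 genes lie lower in Arid3b-null, Nefh and Ncam1 lie higher, and Stmn1 is nearly level.

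Of the stathmins, small proteins that bind free tubulin, Stmn2, Stmn3 and Stmn4 fell and Stmn1 did not pass. Stmn2, made in growing axons, read -3.44, -3.00 and -3.60 in Arid3b-null, against -0.21, -0.62 and -0.20 in wild type, and fell 8.01-fold (-3.00 ± 0.20, limma adjusted p = 0.000464). Stmn3 read -2.57, -2.23 and -2.28 in Arid3b-null and -0.05, -0.26 and -0.19 in wild type, a 4.58-fold fall (-2.19 ± 0.13, limma adjusted p = 0.000391). Stmn4 fell 2.79-fold (limma adjusted p = 0.00313), with both of its probes at -1.48. Stmn1, which dividing cells also express, read 5.47, 5.43 and 5.39 in Arid3b-null, against 5.64, 5.62 and 5.50 in wild type, and did not pass (-0.16 ± 0.10, limma adjusted p = 0.287). Its Arid3b-null arrays all lay below the wild-type arrays, by a small margin. A second Stmn1 probe changed by -0.34 and did not pass. Under normexp on each array's median background Stmn2 fell 4.5-fold, and after normexp with quantile normalization 3.68-fold, with Stmn3 at 2.85-fold.

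Neurofilament genes went both ways. Nefl, the light subunit, read -1.14, -1.19 and -1.36 in Arid3b-null and 0.82, 0.68 and 0.94 in wild type, and fell 4.12-fold (-2.04 ± 0.12, limma adjusted p = 0.000375). Nefm, the medium subunit, fell 6.2-fold (limma adjusted p = 0.00109), which was 4.03-fold under normexp on each array's median background and 3.32-fold after normexp with quantile normalization. Nefh, the heavy subunit, which appears late in the maturation of axons, read -3.08, -2.70 and -3.19 in Arid3b-null, against -4.60, -4.42 and -4.75 in wild type. It rose 3.03-fold (1.60 ± 0.16, limma adjusted p = 0.00162), with no overlap of the arrays (23.0% of all genes had all Arid3b-null arrays above all wild-type arrays). A second Nefh probe, not well above background on any array, differed by 1.20 in the same direction. The Nefh rise was 1.67-fold under normexp on each array's median background, 1.59-fold under normexp without the 30 spots and 1.46-fold after normexp with quantile normalization. Under normexp on each spot's own background the Nefh change was -0.20 (limma adjusted p = 0.857), where the median of all genes was -0.222.

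Prph, the peripherin filament of peripheral and motor neurons, read -4.46, -4.47 and -5.02 in Arid3b-null and -3.88, -3.83 and -4.12 in wild type. Its fall of 1.63-fold passed narrowly (limma adjusted p = 0.0323). It was not called without wild-type pool 1, 2 or 3 or Arid3b-null pool 2 or 3 (limma adjusted p = 0.098, 0.0943, 0.0503, 0.053 and 0.0571) and in 7 other settings, with limma adjusted p up to 0.507 under normexp on each spot's own background.

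Apart from Dcx and the stathmins, given above, falls among the microtubule-associated proteins and collapsin response mediators of the 42 genes reached at most 3.03-fold. Map2, of dendrites and cell bodies, fell by that much (limma adjusted p = 0.00115), with -1.60 and -1.62 on its 2 probes. Map1b, of growing axons, fell 1.71-fold, Tagln3, an actin-binding calponin of neurons, 1.77-fold, Crmp1 1.89-fold and Dpysl3 1.54-fold, the last 2 being collapsin response mediators of growth cones. The Dpysl3 call was lost without wild-type pool 1 or Arid3b-null pool 3 (limma adjusted p = 0.0585 and 0.0525) and without a filter on dim probes (0.0652). Map2 fell 1.97-fold after normexp with quantile normalization.

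Mapt, the gene of tau, read -0.48, -0.20 and -0.78 in Arid3b-null and -0.39, -0.38 and -0.46 in wild type, with overlapping arrays (-0.08 ± 0.16, limma adjusted p = 0.759). Its other 2 probes changed by -0.15 and -0.36, and neither passed. Gap43, a membrane protein of growth cones, read 1.52, 1.61 and 1.40 in Arid3b-null, against 1.76, 1.75 and 1.86 in wild type, and did not pass either (-0.29 ± 0.11, limma adjusted p = 0.0931). Both genes had clear signal on all arrays.

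**Figure D3:**
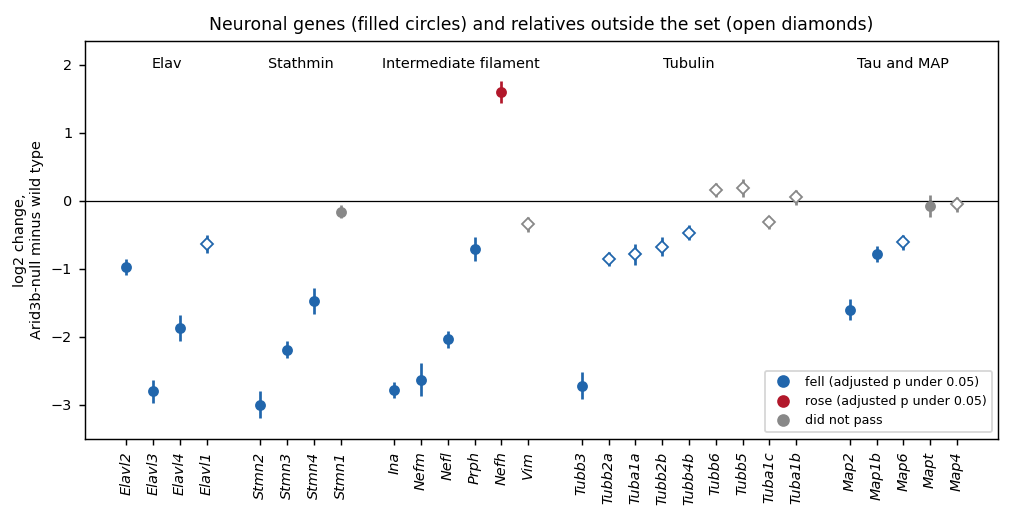
Log2 change with SE for the families of Elav proteins, stathmins, intermediate filaments, tubulins and microtubule-associated proteins. Filled circles are genes of the set and open diamonds relatives outside it. The neuronal genes Elavl3, Stmn2, Ina and Tubb3 lie between -2.7 and -3.0, while Stmn1, Tubb5 and Map4 lie near 0 and did not pass. Within the set Nefh rose (1.60) and Mapt did not pass (-0.08). Among the open diamonds Tubb2a (-0.86), Tuba1a (-0.79), Tubb2b (-0.68), Elavl1 (-0.64), Map6 (-0.61) and Tubb4b (-0.47) fell.

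Each of the 3 adhesion genes did something else. Cntn2, the axonal adhesion protein TAG-1 of early motor and commissural neurons, read -6.52, -7.53 and -6.95 in Arid3b-null and -5.02, -5.91 and -4.99 in wild type. It fell 3.23-fold (-1.69 ± 0.34, limma adjusted p = 0.014), but with 1 of 3 Arid3b-null arrays well above background the size is poorly fixed. The call was lost without wild-type pool 1 (limma adjusted p = 0.0502) or Arid3b-null pool 3 (0.051), without a filter on dim probes (0.0527) and under normexp on each array's median background (1.16-fold, 0.211). It was also lost after normexp with quantile normalization (1.15-fold, 0.0821) and under normexp without the 30 spots (1.20-fold, 0.207). L1cam, an axonal adhesion molecule, read -3.73, -4.54 and -4.52 in Arid3b-null, against -3.90, -4.23 and -4.19 in wild type, and did not pass (-0.16 ± 0.24, limma adjusted p = 0.666).

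Ncam1, the neural cell adhesion molecule, is also made by mesenchyme and muscle precursors. It read 2.29, 2.31 and 2.18 in Arid3b-null and 1.70, 1.89 and 1.73 in wild type, and rose 1.40-fold (0.49 ± 0.11, limma adjusted p = 0.018). A second probe rose by 1.41 (limma adjusted p over all probes = 0.00247), with -0.88, -0.65 and -0.89 in Arid3b-null and -2.20, -1.94 and -2.51 in wild type. The third probe differed by 1.27 and was well above background on 2 Arid3b-null arrays and on 0 wild-type arrays. Thus the 3 probes shared a direction and differed in size. The call on the brightest probe was lost without wild-type pool 1 or 3 or Arid3b-null pool 1 or 2 (limma adjusted p = 0.0748, 0.0529, 0.0555 and 0.055) and without a filter on dim probes (0.0801).

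In the vesicle and secretory group 3 of 6 tested genes fell, 1 rose and 2 did not pass, with a median change of -0.58. Rtn1, a reticulon of the neuronal endoplasmic reticulum, read 0.46, 0.46 and 0.37 in Arid3b-null and 1.76, 1.74 and 1.76 in wild type, a 2.50-fold fall (-1.32 ± 0.09, limma adjusted p = 0.000558). Scg3, a granin that loads secretory granules, read -1.79, -1.46 and -1.75 in Arid3b-null, against -0.22, -0.42 and -0.16 in wild type, and fell 2.63-fold (-1.40 ± 0.14, limma adjusted p = 0.00135). For both, the spread within a group was small beside the difference. Syt1, the calcium sensor of fast release, read -4.27, -3.76 and -4.13 in Arid3b-null and -3.12, -3.43 and -2.95 in wild type, a 1.85-fold fall (-0.89 ± 0.18, limma adjusted p = 0.0156). The Syt1 call was lost without wild-type pool 1 or Arid3b-null pool 3 (limma adjusted p = 0.0563 and 0.0586) and without a filter on dim probes (0.061).

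Rab3a, a GTPase of synaptic vesicles, read 0.30, 0.19 and 0.15 in Arid3b-null, against -0.28, -0.15 and -0.37 in wild type, and rose 1.39-fold (0.48 ± 0.11, limma adjusted p = 0.0222). Its call was lost without wild-type pool 1 or 3 or Arid3b-null pool 1 or 2 (limma adjusted p = 0.0797, 0.0633, 0.069 and 0.0555), with median scaling (0.0554) and under normexp on each array's median background (0.0552). It was also lost without a filter on dim probes (0.0926), under normexp without the 30 spots (0.0655) and after normexp with quantile normalization (0.0702).

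Snap25, a SNARE protein of the presynaptic membrane, read 2.56, 1.61 and 2.31 in Arid3b-null, against 2.09, 2.03 and 3.17 in wild type (-0.28 ± 0.37, limma adjusted p = 0.621). Chgb, the secretory granule protein chromogranin B, read -2.79, -1.65 and -2.07 in Arid3b-null and -1.83, -2.06 and -2.21 in wild type (-0.13 ± 0.29, limma adjusted p = 0.76). The arrays of the groups overlapped for both genes. Syt4, a synaptotagmin of dense-core vesicles, was not tested. It read -8.75, -8.84 and -7.97 in Arid3b-null, well above background on 0 arrays, and -6.16, -7.49 and -7.33 in wild type, well above background on 1 array.

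The 29 genes that fell were lower in Arid3b-null on each of the 3 slides. This follows from all their Arid3b-null arrays lying below all wild-type arrays, and adds nothing to it. The size was not even between slides: in 24 of the 29 the fall was smallest on slide 2, against 32.5% of all genes that fell. The medians over the 39 tested genes were -1.15 on slide 1, -0.99 on slide 2 and -1.18 on slide 3. For Scrt1 the changes on the 3 slides were -3.71, -2.32 and -3.38, and for Elavl3 they were -3.13, -2.30 and -2.97. Among the 29, Arid3b-null pool 2 was the highest Arid3b-null array in 17 genes and wild-type pool 2 the lowest wild-type array in 21. The pools of slide 2 thus lay nearer to each other in neuronal transcripts.

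Other neuronal genes outside the set were read from a list by the same roles. Of 61 tested, 30 fell (49.2%, against 12.9% of all genes tested), 5 rose (8.2%, against 13.6%) and 26 did not pass. Their median change was -0.50. Among those that fell, Onecut3 and Syn2 were well above background on 1 of 3 Arid3b-null arrays. They entered the test through the wild-type arrays alone, and are named after their values were seen. The smallest adjusted p values were those of Dpysl4, a collapsin response mediator (3.54-fold lower), Insm1, a zinc finger factor of newborn neurons and endocrine cells (4.32-fold lower), Chga, chromogranin A (4.75-fold lower), and Nhlh2, a helix-loop-helix factor of young neurons (9.94-fold lower). Under normexp on each array's median background Chga fell 2.71-fold and Nhlh2 3.73-fold, and after normexp with quantile normalization 2.30-fold and 2.97-fold.

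The 5 that rose were named after their values were seen. They are the adhesion gene Nrcam at 2.01-fold, the kinesin gene Kif1a at 1.75-fold, the vesicle SNARE gene Vamp2 at 1.5-fold, and, with only dim signal in wild type, the neurexin gene Nrxn3 and the beta-synuclein gene Sncb. These last genes entered the test through the Arid3b-null arrays alone, so only a difference could bring them in. Nrxn3 read -2.96, -2.71 and -3.36 in Arid3b-null, against -5.78, -6.32 and -5.84 in wild type, where 1 array was well above background. Sncb was not well above background on any wild-type array and was at least 1.90-fold higher in Arid3b-null (limma adjusted p = 0.00789). The bound replaces the Sncb value of each wild-type array by the lowest signal that counted there as well above background, wherever that signal was higher.

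Relatives of these genes that are not confined to neurons were read beside them. Of 21 tested, 3 fell (14.3%, near the 12.9% of all genes tested), 1 rose (4.8%, against 13.6%) and 17 did not pass. Their median change was -0.01. Tubb2a, a beta-tubulin, fell 1.81-fold (limma adjusted p = 0.00265), Elavl1, the broadly expressed Elav protein HuR, 1.56-fold (0.0138) and Tubb4b 1.38-fold (0.0243), and Snai2, a Snail factor of migrating crest and mesenchyme, rose 1.67-fold (0.0211). Tubb4b was not called without wild-type pool 1, 2 or 3 or Arid3b-null pool 2 or 3 (limma adjusted p = 0.0616, 0.0715, 0.069, 0.067 and 0.0554). Snai2 was not called without wild-type pool 1 or 3 or Arid3b-null pool 1 or 2 (0.0729, 0.0616, 0.0637 and 0.06). Elavl1, Tubb4b and Snai2 were not called without a filter on dim probes (0.0612, 0.0986 and 0.0776).

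**Figure D4:**
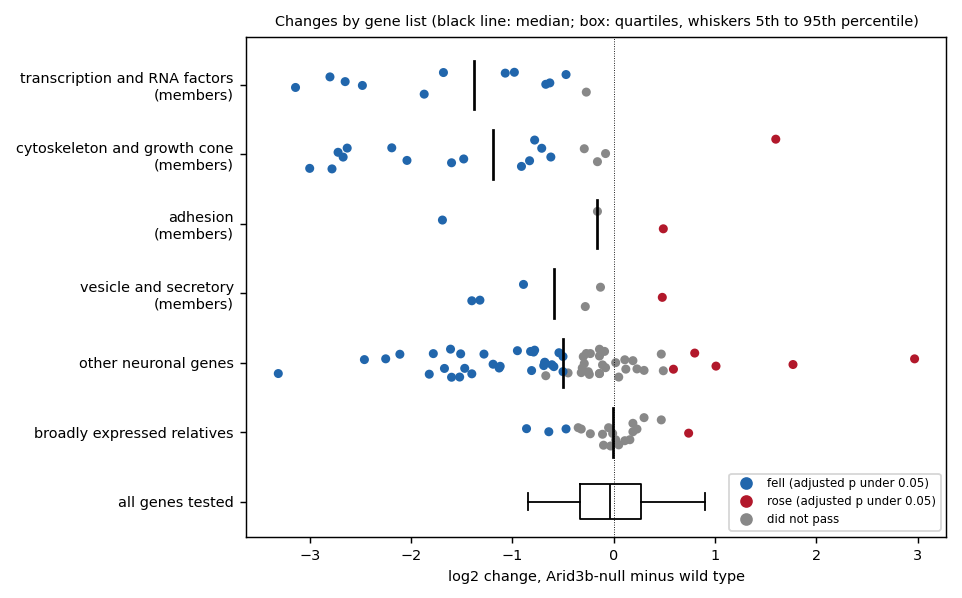
Log2 change of each gene in the 4 roles of the set, in the other neuronal genes and in the relatives not confined to neurons (labelled broadly expressed relatives). The median is a black line, and below is a box of all 19795 genes tested (quartiles, whiskers at the 5th and 95th percentile). The medians of the 2 large roles are -1.37 and -1.20, against -0.04 over all genes and -0.01 over the relatives.

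Repressors of neuronal transcripts were also read. Rest, which silences neuronal genes in other cells, read 1.76, 1.74 and 1.94 in Arid3b-null, against 1.37, 1.49 and 1.17 in wild type, and rose 1.39-fold (0.47 ± 0.13, limma adjusted p = 0.0347). The Rest call was lost without wild-type pool 1 or 3 or Arid3b-null pool 1, 2 or 3 (limma adjusted p = 0.0965, 0.0881, 0.0717, 0.0667 and 0.0998), with the slide as a block (0.0716), with median scaling (0.079) and without a filter on dim probes (0.122). Its corepressor gene Rcor1 (-0.01 ± 0.10, limma adjusted p = 0.938) and the splicing repressor gene Ptbp1 (-0.07 ± 0.12, limma adjusted p = 0.682) did not pass, and their direction flipped with quantile normalization (0.05 and 0.04).

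Most, but not all, markers of the cells that neurons come from fell with the neuronal genes. Of 11 neural tube progenitor genes 7 fell and 0 rose (limma, also 0 higher at an unadjusted p under 0.05). The share that fell was 63.6%, against 12.9% of all genes tested. The summed linear level of the 11 was 28.3 to 33.3 times the 75th percentile in Arid3b-null, against 64.8 to 69.7 times in wild type. Hes5 and Nes, the brightest of them, weighed most in this sum. Their mean log2 values were 3.67 and 3.13 in Arid3b-null, against 4.94 and 4.12 in wild type. Dbx1, a homeobox factor of ventral interneuron progenitors, fell 7.91-fold (5.24-fold after normexp with quantile normalization), Fabp7, of radial glia, 2.83-fold and Hes5, a Notch target, 2.41-fold. Sox2 and Pax6, which mark most progenitors, did not pass (-0.02 ± 0.23 and -0.09 ± 0.13). Sox1 (-0.33 ± 0.16) and Msi1 (-0.41 ± 0.20) did not pass either.

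Of 6 spinal motor neuron genes 4 could be tested and all 4 fell, the homeobox genes Lhx3 12.6-fold, Lhx4 4.54-fold and Isl2 2.22-fold, and the acetylcholine transporter gene Slc18a3 6.37-fold (named after their values were seen). They had a summed level of 0.437 to 0.544 in Arid3b-null and 1.76 to 2.46 in wild type. Of 10 genes of peripheral sensory and autonomic neurons 5 fell and 3 rose, with Isl1 2.69-fold and Pou4f1 2.44-fold lower. Among those that rose were the neurotrophin receptor genes Ntrk3 (1.74-fold) and Ntrk2 (1.67-fold), named after their values were seen. Their summed level was 6.14 to 7.46 in Arid3b-null and 7.57 to 7.73 in wild type.

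Neural crest and early glia genes went the other way. Of 7 tested, 3 rose and 0 fell (limma; also 0 lower at an unadjusted p under 0.05), Erbb3 2.29-fold, Foxd3 2.10-fold and Sox10 1.80-fold, with a summed level of 10.9 to 11.7 in Arid3b-null, against 7.34 to 8.51 in wild type. Erbb3 did not pass under normexp on each array's median background (1.34-fold, limma adjusted p = 0.0584) or without the 30 spots (1.27-fold, 0.141), and it rose 1.21-fold after normexp with quantile normalization. Erbb3 was well above background on 2 of the 3 wild-type arrays, so it entered the test through the Arid3b-null arrays alone. Surface epithelium genes rose in 4 of 6, the keratin genes Krt19 (4.96-fold), Krt8 (2.20-fold) and Krt18 (1.81-fold) and the factor gene Tfap2a (2.26-fold, all named after their values were seen), with a summed level of 56.2 to 66.0 in Arid3b-null and 23.8 to 35.9 in wild type. In the somite and muscle list 2 of 5 genes fell (Pax1 3.86-fold and Myog 1.93-fold), as did 2 of 5 erythroid genes (Klf1 2.74-fold and Gata1 1.76-fold) and 1 of 3 forebrain and midbrain genes (Lhx2 1.38-fold). Of 6 forelimb mesenchyme genes Lhx9 fell 2.73-fold and Fgf10 rose 1.79-fold. The genes of these lists were named after their values were seen. By limma 0 of 5 endothelial and 0 of 5 cardiac genes passed (0 and 1 lower at an unadjusted p under 0.05), and summed forelimb levels were 7.29 to 8.28 in Arid3b-null and 7.53 to 7.91 in wild type. The counts of these short lists are to be read beside the 12.9% of all genes tested that fell and the 13.6% that rose. The part of these tissues in the neuronal changes was not tested.

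**Figure D5:**
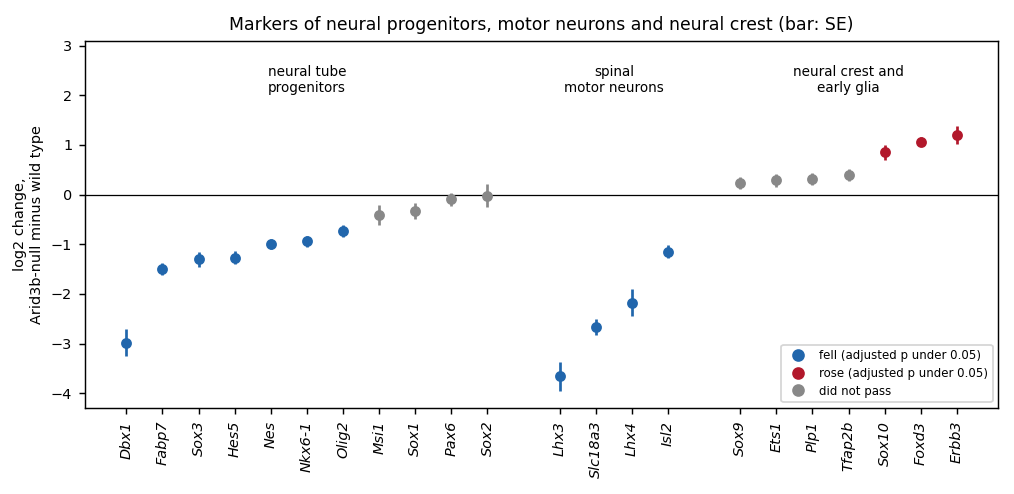
Log2 change with SE for markers of neural tube progenitors, spinal motor neurons, and neural crest with early glia, coloured by call. All 4 motor neuron genes are blue, between -1.15 and -3.66, while 3 crest genes are red and 0 are blue.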

How the data were processed

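Total RNA of pooled trunks was amplified and labelled with Cy3, per the labels. Per the file headers, spots were read with Agilent Feature Extraction 10.7.3.1 (protocol GE1_107_Sep09, design 026655, build mm9), and the deposited intensity values are the background-subtracted signal and the median signals of spot and local background on a linear scale. The deposited value table holds log2 values of 24181 probes, which correlated with each array's log2 signal at 0.9987 to 0.9999, with column medians of 6.77 each; how it was normalized was not stated in the labels or headers.

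Of 39429 probes, 26424 matched 1 symbol through unversioned accessions in a RefSeq table of assembly GRCm38.p6, 0 matched several and 13005 none. Probes without a symbol were kept as genes under their array name, so shares over all genes include them. log2 signals were centred on each array's 75th percentile, outlier spots (100 to 169 per array) removed and spots of a probe averaged. Testing took the 24423 probes that rose well above background on the 3 arrays of either group. Each gene is its brightest tested probe (19795 genes). Other probes are given for some of the members only. limma 3.58.1 in R 4.3.3 (lmFit, eBayes, two-sided, Benjamini-Hochberg, 0.05) gave every adjusted p. The fit was tested on simulated data. Correlations between replicates across genes were 0.99 to 0.993 in Arid3b-null and 0.989 to 0.995 in wild type; the number of arrays limits the precision.

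Arrays of the same replicate number share a slide, and their deviations from the group means correlated at 0.163, 0.387 and 0.278, so the numbers pair the samples. The members, roles and lists were chosen with earlier results of these data known. Per-array values and tests are given for the 4 called members of each role with the smallest adjusted p, for members that rose, did not pass or were dim, and for a few fixed genes of other lists; the alternatives tried were other background corrections, normalizations, filters, probe rules, the slide as a block and leaving out each array. Some genes of the marker lists are not reported here by name.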

Additional observations from a re-analysis of the deposited data

How the results depend on the processing

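The counts kept their size within 1.5 times in most settings. With the slide as a replicate block, 28 of the neuronal genes fell and 3 rose, and 2348 and 2428 of all genes; the block ended the calls of Ebf3 and Rest and of no other gene it was run for, which leaves out the genes named after their values were seen. Normexp on each spot's own background with 75th percentile scaling gave 0 falls and 2 rises over all genes by limma (904 and 1026 at an unadjusted p under 0.05), and 0 falls and 0 rises among the neuronal genes, with 0 falls in each of the 4 roles. It moved the median of all genes to -0.222, from which changes there are to be read. As read from 0, the sign turned for Stmn1 (0.15), Nefh (-0.20), Snap25 (0.06), Ptbp1 (0.28), Rcor1 (0.20) and Erbb3 (-0.61). The Nefh value lay at about the shifted median, so for Nefh this is a lost rise and not a fall. Leaving out 30 spots with a local background above 100 units, chosen after seeing the data, gave 2034 falls and 2058 rises, 27 and 2 of them neuronal. The median change of the neuronal genes was -0.84 under normexp on each array's median background, -0.75 after normexp with quantile normalization and -0.83 without the 30 spots.

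Cntn2, the 1 adhesion gene that fell, was not called in any normexp setting (0), without a filter on dim probes (0) or with probes well above background on all 6 arrays, where it was not tested (0). Without a filter on dim probes, 998 of all genes fell and 1288 rose, and 1 neuronal gene rose. Leaving out 1 array gave 1212 to 2024 falls and 1659 to 2019 rises over all genes, with 1 to 3 rises (1 without wild-type pool 1 or 3 or Arid3b-null pool 1 or 2) and 23 to 28 falls among the neuronal genes (23 without wild-type pool 1 or Arid3b-null pool 3), 0 to 1 adhesion falls and a median of -1.10 to -0.91. Over the arrays left out in turn, the range was -0.48 to 0.09 for Snap25, -0.39 to 0.17 for Chgb, -0.22 to 0.07 for Mapt, -0.12 to 0.01 for Ptbp1 and -0.06 to 0.03 for Rcor1. Their signs turned without wild-type pool 3 (Snap25 0.09 and Rcor1 0.01) or 2 (Ptbp1), and without Arid3b-null pool 1 (Chgb and Rcor1) or 3 (Mapt). Ptbp1 was also 0.07 and Rcor1 0.04 after normexp with quantile normalization, 0.04 and 0.05 with quantile normalization, and Ptbp1 0.04 in the deposited value table and 0.01 with probes of a gene averaged. Of the genes whose sign turned as read from 0, Nefh and Erbb3 were called in the report. Cntn2 was well above background on 1 of 3 Arid3b-null arrays, which limits its value.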
